A study of Homo sapiens with 4 samples.

Results

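The 10 mRNAs described here encode MKI67, the antigen by which dividing cells are most often recognised, and 9 further proteins of mitosis, TOP2A, ASPM, TPX2, BIRC5, AURKA, AURKB, PLK1, CCNB1 and BUB1. They were chosen by gene name, and their Ensembl identifiers were looked up in GENCODE v44. All 10 were found among the 63677 genes of the count table, and all 10 passed the filter on low counts that left 14645 genes for testing. Nuclear RNA of HCT116, an established line from a human colorectal carcinoma, was immunoprecipitated without crosslinking 48 h after transient transfection of pcDNA3.1-ORC1-3xFLAG, a plasmid for the tagged largest subunit of the origin recognition complex. There were 2 anti-FLAG immunoprecipitates (IP) and 2 samples of the same nuclear RNA before precipitation (Input), numbered replicate 1 and replicate 2, and the Input libraries carried the same transfection. The study sequenced ribosomal RNA-depleted total RNA and asked which nuclear RNAs are recovered with ORC1. No library came from a control antibody or from untransfected cells. From these libraries, RNA that sticks to the beads and RNA bound by the tagged protein cannot be told apart. The study reported that control IgG recovered no detectable RNA beside its precipitation of endogenous ORC1. It also reported that most transcripts found with the tagged protein overlapped with those of endogenous ORC1. The tagged protein was expressed from a plasmid in a single cell line.

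The products of these genes accumulate towards the end of the cell cycle and act on chromosomes and spindle. MKI67 coats the surface of mitotic chromosomes and keeps them apart, and TOP2A disentangles their DNA. ASPM and TPX2 organise spindle poles and spindle microtubules, and TPX2 also binds and activates the kinase AURKA there. AURKB is the kinase of the chromosomal passenger complex, in which BIRC5 (survivin) is a targeting subunit. CCNB1 activates CDK1 for entry into mitosis, PLK1 is a kinase with many mitotic substrates, and BUB1 is a kinase of the spindle assembly checkpoint.

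Total counts were between 20280445 and 27483148 in the IP and between 9213877 and 14677002 in the Input libraries. Levels are given as CPM, counts per 1000000 counts of a library, after TMM scaling (trimmed mean of M values). The transfected gene, ORC1, lay at 1108 and 18551 CPM in IP replicates 1 and 2 and at 333 and 5063 CPM in the Inputs, so its level differed far more between replicates than that of any mRNA below. The 5 epithelial markers EPCAM, KRT8, KRT18, KRT19 and CDH1 summed to between 2313 and 4510 CPM per library, all 5 being tested. Of the 12 markers of leukocytes, endothelium, fibroblasts and hepatocytes, 4 had no count in any library. The leukocyte markers summed to at most 0.428 CPM and the hepatocyte markers to at most 0.257 CPM. The endothelial markers reached 2.39 CPM, all of it VWF, and the fibroblast markers 26.9 CPM, nearly all of it COL1A1.

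The coding sequences of the 10 mRNAs span a wide range of lengths, which is the property by which they are compared below. In the canonical transcripts of GENCODE v44 (GRCh38), with the stop codon included, ASPM has 10434 coding bases, MKI67 9771, TOP2A 4596 and BUB1 3258. These 4 are called long, with at least 3000 bases. The other 6 are called short and run from TPX2 with 2244, PLK1 with 1812, CCNB1 with 1302, AURKA with 1212 and AURKB with 1035 down to BIRC5 with 429. Coding sequence makes up 96.1% of the ASPM transcript but 16.7% of that of BIRC5, whose 3′ untranslated region has 2081 bases.

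The study described tandem GAA repeats in RNAs recovered with ORC1, so the coding sequences were searched for GAAGAA and GAAGAAGAA on the sense strand, overlapping matches included, and for the reverse complement TTCTTC. The shorter motif, GAAGAA, occurred in all 10 coding sequences, 20 times in ASPM, 19 times in MKI67, 11 times in TPX2, 10 times in TOP2A and once in AURKA. It occurred in 70.5% of the 12542 protein-coding genes tested. The longer GAAGAAGAA occurred in 4 of the 10, which are MKI67, TOP2A, TPX2 and ASPM, and in 12.5% of the coding genes tested. Among genes of the longest decile by coding length, where MKI67, TOP2A and ASPM belong, its share was 33.1%. TTCTTC occurred in 7 of the 10 and in 46.0% of the coding genes tested. Per 1000 coding bases, GAAGAA was densest in TPX2 (4.90) and BIRC5 (4.66), against a median of 0.949 over the coding genes tested. The sites of GAAGAAGAA are shown with up to 10 bases on either side, since 3 of the 4 mRNAs that hold them had the largest ratios of IP to Input of the list. Capitals mark the uninterrupted GAA repeats, and positions count from 1 at the first base of the start codon.
MKI67, coding position 4561, exon 13, chr10:128107261-128107289, minus strand: agtggacgtaGAAGAAGAAttcttcgcac
MKI67, coding position 5293, exon 13, chr10:128106529-128106557, minus strand: agcagacactGAAGAAGAAtttttagcat
TOP2A, coding position 1023, exon 9, chr17:40411376-40411405, minus strand: tgatgttgtGAAGAAGAAGAAcaagggtgg
TOP2A, coding position 3298, exons 25 and 26, chr17:40398910-40399040, minus strand: ggttccagatGAAGAAGAAaatgaagaga
TPX2, coding position 1837, exons 15 and 16, chr20:31794542-31797425, plus strand: gcaccagctgGAAGAAGAActgagacagc
ASPM, coding position 1908, exons 3 and 4, chr1:197139867-197142354, minus strand: aattaaacctGAAGAAGAAaactgattta
Where exons are given as a pair, the site is read across the splice junction and its coordinates include the intron. TOP2A held the longest repeat, with 4 units, and all other sites had 3. A match is a description of the sequence and does not show where the protein was bound. From crosslinking positions and gel shifts, the study reported that ORC1 does not bind RNA through the GAA repeats. Its own motif search used entire transcripts, whereas the search here was of exact matches in coding sequences.

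MKI67 (ENSG00000148773, chromosome 10 from 128096659 to 128126423, minus strand) was the most enriched of the 10. It had 4969 and 6183 CPM in IP replicates 1 and 2, against 1041 and 767 CPM in the Inputs. Both IP libraries were far above both Inputs, and the ratio of IP to Input was 2.25 on the log2 scale in replicate 1 and 3.01 in replicate 2. The log2 fold change was 2.63 ± 0.34 (SE, 2 libraries a group, adjusted p by edgeR = 0.0105), a 6.17-fold difference. This placed MKI67 at percentile 99.9 of the 14645 genes tested. The counts behind it, from 8959 in Input replicate 2 to 108691 in IP replicate 2, leave little counting error. Counts on the named pseudogenes MKI67P1, AURKAP1, AURKAP2, AURKBP1 and BUB1P1 were at most 2 in any library. The study itself examined MKI67 as an RNA recovered with ORC1, so its presence on the list is no independent choice.

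TOP2A (ENSG00000131747, chromosome 17 from 40388525 to 40417896, minus strand) followed, with 1259 and 1041 CPM in IP against 295 and 196 CPM in Input. Its log2 ratios were 2.09 and 2.41, and its log2 fold change was 2.23 ± 0.32 (SE, adjusted p by edgeR = 0.0107). The ratios of replicates 1 and 2 differed by less for TOP2A than for MKI67. TOP2B, the isoform that is also made in cells that do not divide, was enriched as well, with 517 and 406 CPM in IP against 175 and 111 CPM in Input and a log2 fold change of 1.69 ± 0.32 (SE, adjusted p by edgeR = 0.0155). Its coding sequence, with 4881 bases, is of about the length of that of TOP2A.

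Of the spindle proteins, TPX2 (ENSG00000088325, plus strand of chromosome 20 from 31739271 to 31801805) had the larger enrichment. It had 2659 and 2062 CPM in IP against 628 and 459 CPM in Input, with log2 ratios of 2.08 and 2.17. Its log2 fold change was 2.12 ± 0.32 (SE, adjusted p by edgeR = 0.0110), although its coding sequence is much shorter than that of ASPM. ASPM (ENSG00000066279, chromosome 1 from 197084121 to 197146694, minus strand), with the longest coding sequence of the list, had 173 and 187 CPM in IP against 101 and 73.9 CPM in Input. Its log2 ratios were 0.77 and 1.34, and its log2 fold change of 1.04 ± 0.26 (SE, adjusted p by edgeR = 0.0305) was just past the minimum of 1. The ASPM value was 1.03 without IP replicate 2 and 0.68, under the minimum, without Input replicate 2. AURKA (ENSG00000087586, chromosome 20 from 56369389 to 56392337, minus strand), the kinase that TPX2 activates, was not called. Its IP libraries, with 192 and 107 CPM, overlapped with its Inputs at 152 and 97.1 CPM. Each was slightly above the Input of the same replicate, with log2 ratios of 0.33 and 0.14. The log2 fold change of AURKA was 0.26 ± 0.36 (SE, adjusted p by edgeR = 0.631). Its sign turned without IP replicate 1 and without Input replicate 2 (-0.18 each). TPX2 and AURKA thus stood on opposite sides of the threshold, but the difference between their mRNAs was not tested.

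In the passenger complex, likewise, some mRNAs passed the threshold and others did not, and the differences between them were not tested. AURKB (ENSG00000178999, chromosome 17 from 8204733 to 8210600, minus strand) had 139 and 100.1 CPM in IP against 88.5 and 79.3 CPM in Input. Both IP libraries were above both Inputs, with log2 ratios of 0.65 and 0.33, but the log2 fold change of 0.51 ± 0.25 (SE, adjusted p by edgeR = 0.188) did not pass. BIRC5 (ENSG00000089685, chromosome 17 from 78214186 to 78225636, plus strand), with the shortest coding sequence, varied most between replicates, from 79.2 to 27.5 CPM in IP and from 74.9 to 45.4 CPM in Input. It lay just above its Input in replicate 1 (log2 ratio 0.08) and below it in replicate 2 (-0.71), with a log2 fold change of -0.17 ± 0.49 (SE, adjusted p by edgeR = 0.828). Without Input replicate 1 or without IP replicate 2 the value was above 0 (0.27 and 0.44). The 2 other core subunits, INCENP and CDCA8 (borealin), were enriched, at 1.43 ± 0.27 and 1.34 ± 0.32 on the log2 scale (SE, adjusted p by edgeR = 0.0167 and 0.0287). CDCA8 has only 843 coding bases, fewer than AURKB.

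CCNB1 (ENSG00000134057, chromosome 5 from 69167135 to 69178245, plus strand) was, after TPX2, the most enriched of the short members. It had 1076 and 649 CPM in IP against 349 and 262 CPM in Input, with log2 ratios of 1.62 and 1.30 and a log2 fold change of 1.49 ± 0.34 (SE, adjusted p by edgeR = 0.0246). Without IP replicate 1 it was at 1.13. CDK1, the kinase that cyclin B1 activates, was depleted, with 71.4 and 58.2 CPM in IP against 169 and 123 CPM in Input and a log2 fold change of -1.17 ± 0.27 (SE, adjusted p by edgeR = 0.0243). The CDK1 value was -0.88 without Input replicate 1 and -0.98 without IP replicate 2, both under the fold change minimum in size. CCNB2, the other B-type cyclin of mitosis, was not called at 0.54 ± 0.34 (SE, adjusted p by edgeR = 0.288). Without Input replicate 1 it was at 1.00.

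BUB1 (ENSG00000169679, chromosome 2 from 110637528 to 110678063, minus strand) had 589 and 496 CPM in IP against 268 and 227 CPM in Input. Its log2 ratios of 1.14 and 1.13 were nearly the same, and its log2 fold change was 1.13 ± 0.26 (SE, adjusted p by edgeR = 0.0249). The value was 1.05 without IP replicate 1 and 0.87, under the minimum, without Input replicate 2. The related checkpoint protein BUB1B, of similar coding length (3153 bases), was enriched at 1.21 ± 0.28 (SE, adjusted p by edgeR = 0.0255). Without the same libraries it was at 1.07 and 0.86. For PLK1 (ENSG00000166851, chromosome 16 from 23677656 to 23690367, plus strand) the levels were 337 and 207 CPM in IP against 189 and 124 CPM in Input. Its groups did not overlap and its log2 ratios were 0.83 and 0.74, but at 0.80 ± 0.34 (SE, adjusted p by edgeR = 0.130) it was not called. Leaving out Input replicate 1 (1.17) or IP replicate 2 (1.15) brought its log2 fold change above 1. Other genes on the opposite strand, ERN2 and an unnamed lncRNA gene, share 1.22% and 11.6% of the exonic bases of PLK1, and the strand setting of the counting is not given in the sources used here. PLK4, the centriole kinase of the same family, was not called at 0.63 ± 0.29 (SE, adjusted p by edgeR = 0.162). Leaving out Input replicate 1 brought its log2 fold change above 1 too (1.07).

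**Figure D1:**
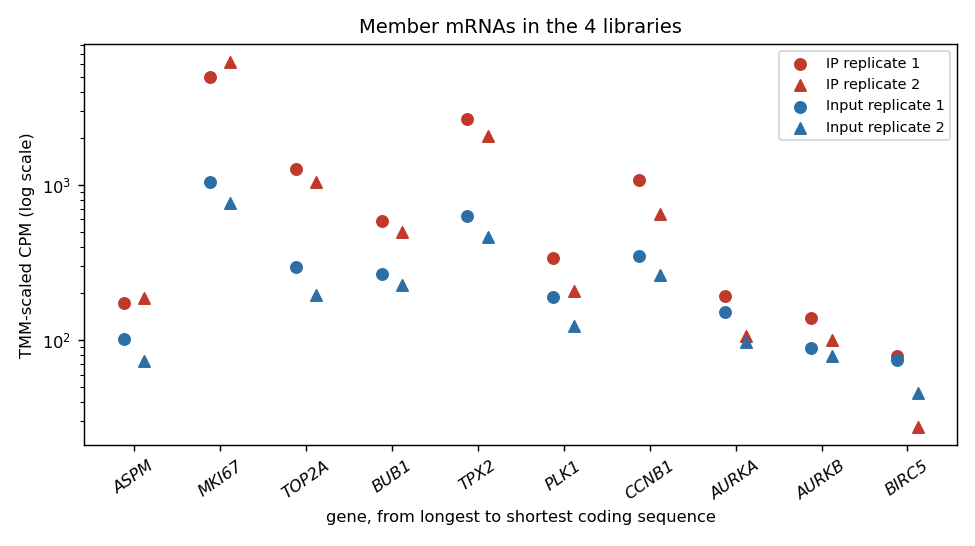
TMM-scaled CPM (log scale) of the 10 mRNAs in each of the 4 libraries, ordered from the longest to the shortest coding sequence, with circles for replicate 1, triangles for replicate 2, red for IP and blue for Input. Red and blue are widest apart for MKI67, TOP2A and TPX2, and they overlap for AURKA and BIRC5.

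In all, 6 of the 10 mRNAs were enriched (log2 fold change above 1, with an adjusted p by edgeR below 0.05), against 10.5% of all genes tested. None of the 10 was depleted (8.3% of all genes tested), and 0 had an unadjusted p below 0.05 in that direction with edgeR, DESeq2 or limma voom on all 4 libraries. The log2 fold change of BIRC5 was -1.09 without IP replicate 1 and -0.65 without Input replicate 2. Both IP libraries lay above both Inputs for 8 of the 10, against 33.2% of all genes tested, and below both Inputs for none (31.9%). Both replicate log2 ratios were above 0 for 9 of the 10, against 6286 of all 14645 genes tested. The median log2 fold change of the 10 was 1.09, with medians of the replicate ratios of 0.98 and 1.22. That of all genes tested was 0.01. With the replicate number as a block, the same 6 were enriched (13.4% of all genes tested) and none was depleted (13.4%). PLK1 and AURKB then also had an adjusted p below 0.05 (edgeR, 0.000871 and 0.0193), with log2 fold changes of 0.79 and 0.49 that stayed under the minimum. The members were picked by name with earlier results of these data known, so the share called is a description of the list. When library size alone was used for scaling, which moved all genes by a median of -0.60, MKI67 (2.04), TOP2A (1.63) and TPX2 (1.51) remained enriched, and AURKA (-0.36) and AURKB (-0.10) changed sign. Enrichments made up 55.9% of all calls among the 14645 genes with TMM, 10.4% when library size alone was used and 41.2% after upper-quartile scaling. A test against a log2 fold change of 1 (glmTreat) called 0 of all 14645 genes enriched and 1 depleted, with 4 of the 10 and 913 of all genes at an unadjusted p below 0.05 for enrichment.

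**Figure D2:**
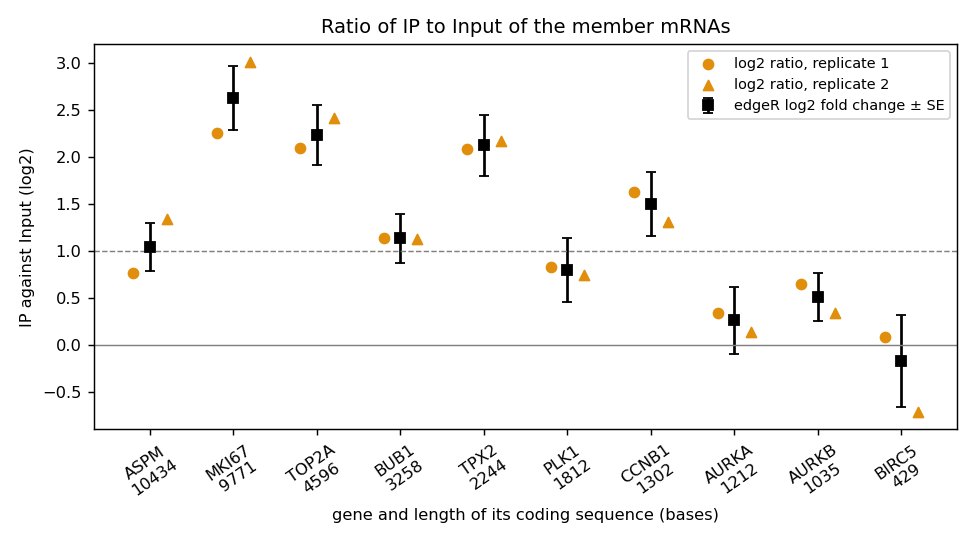
Ratio of IP to Input (log2) of the 10 mRNAs, ordered by coding length in bases, with orange symbols for the replicate ratios and black squares for the edgeR log2 fold change ± SE; the dashed line marks 1 and the solid line 0. The largest value is 2.63 for MKI67 and the lowest -0.17 for BIRC5, which has the shortest coding sequence. ASPM, which has the longest, sits near the dashed line, and TPX2, CCNB1 and AURKB each lie above the next longer member.

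Set against coding length, all 4 long mRNAs were enriched, as were 2 of the 6 short ones, TPX2 and CCNB1. Among all protein-coding genes tested, 38.9% of those with at least 3000 coding bases and 7.09% of the shorter ones were enriched, and 0.211% and 9.68% were depleted. The median log2 fold change was 1.68 for the 4 long and 0.65 for the 6 short mRNAs, a difference of 1.03, and the replicate ratios gave differences of 0.87 and 1.34. For all coding genes tested the medians were 0.91 and -0.065. As the 10 genes are not replicates, no test was made of this difference. Within the list the order by length was broken by ASPM, which ranked sixth in log2 fold change, and by TPX2, CCNB1 and AURKB, which ranked above longer members. Across the 10 genes, Spearman rho of log2 fold change was 0.733 with coding length, 0.588 with transcript length, 0.656 with the number of exons and 0.188 with the density of GAAGAA. These values share the same 4 libraries and are descriptive. Over all 12542 coding genes the corresponding values were 0.589, 0.263, 0.531 and 0.294. Across the 50 other mitotic genes described below they were 0.619, 0.439, 0.728 and 0.629, so the value for GAAGAA density was higher there.

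Each mRNA was then placed among the coding genes of its own length decile. MKI67, TOP2A and ASPM belonged to the longest decile (3618 bases and above), whose median log2 fold change was 1.07 with an interquartile range of 0.64 to 1.47. There MKI67 stood at percentile 99.4 and TOP2A at 97.2, but ASPM at 47.8, near the median. TPX2 was at percentile 99.1 of the eighth decile (median 0.45) and CCNB1 at 98.1 of the fifth (median -0.03). BIRC5, though not above its Input over both replicates, stood at percentile 76.4 of the shortest decile, whose median was -0.81. With ASPM as the exception, 9 of the 10 were above the upper quartile of their decile, as were 3139 of the 12542 coding genes tested. AURKA (percentile 75.5), BIRC5, PLK1 (percentile 78.1) and BUB1 (percentile 80.0) passed it by less than the SE of their log2 fold changes. Of the 50 other mitotic genes described below, 25 were above the upper quartile of their decile. No test was made of these counts.

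**Figure D3:**
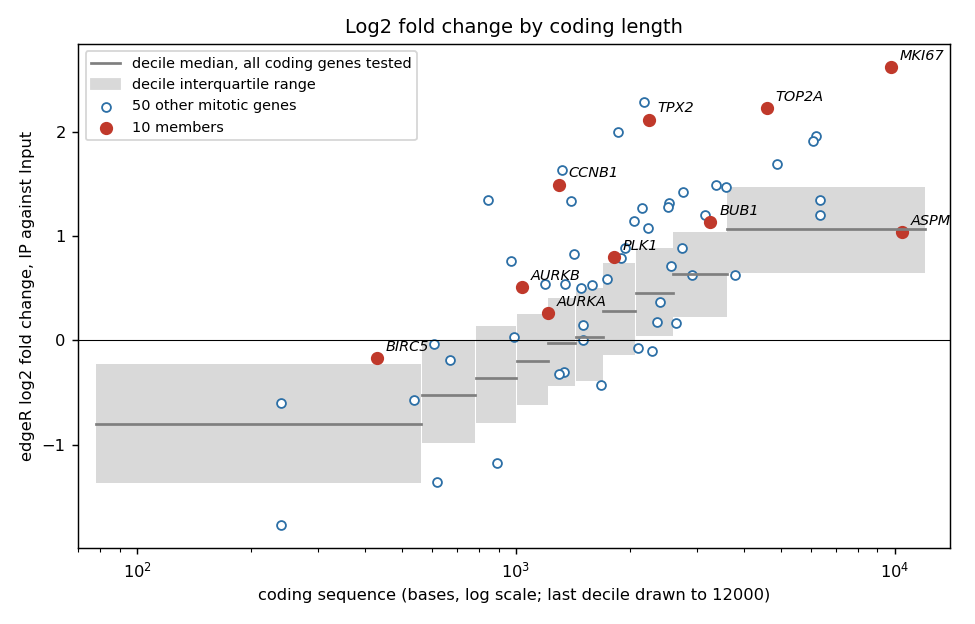
edgeR log2 fold change of IP against Input plotted against coding length (bases, log scale), with red points for the 10 members, open points for 50 other mitotic genes, and grey bars and lines for the interquartile range and median of each length decile of the 12542 coding genes. The grey medians rise from -0.81 to 1.07, and 9 of the 10 red points lie above the grey bars, ASPM being within one. AURKA, BIRC5, PLK1 and BUB1 are above theirs by less than the SE of their values.

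Levels were also compared between genes per 1000 bases of the canonical transcript. In Input, TPX2 (181 and 132 CPM per 1000 bases) and CCNB1 (172 and 129) were highest, and their ranges overlapped. PLK1, MKI67, AURKB, BUB1, AURKA and TOP2A followed with means from 72.5 down to 43.1 CPM per 1000 bases, each overlapping with its neighbour in that order. BIRC5 (29.1 and 17.6) and ASPM (9.33 and 6.80) were lowest and apart from each other and from the rest. In IP, TPX2 (766 and 594) came first, then MKI67 (391 and 486) and CCNB1 (530 and 320), whose ranges overlapped, then TOP2A (221 and 183). TOP2A thus moved from the eighth place in Input to the fourth in IP. BIRC5 (30.8 and 10.7) and ASPM (15.9 and 17.2) remained the lowest. Across the 10 genes, Spearman rho between log2 fold change and Input level per 1000 bases was 0.394.

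The list of 50 other mitotic genes, drawn up from textbook roles, was tested whole. Of these 50, 16 were enriched and 3 depleted, against 10.5% and 8.3% of all genes tested. The 50 had a median log2 fold change of 0.67. With the replicate block 19 were enriched and 3 depleted (13.4% of all genes tested in each direction). Of the 9 with at least 3000 coding bases 8 were enriched, against 38.9% of all coding genes of such length. Of the 41 shorter ones 8 were enriched and 3 depleted, against 7.09% and 9.68% of all shorter coding genes. The largest enrichments were those of HMMR, a spindle assembly factor (2.29 ± 0.66), PRC1, which bundles microtubules of the central spindle (2.00 ± 0.32), CIT, a kinase of cytokinesis (1.96 ± 0.24), CKAP5, a microtubule polymerase (1.91 ± 0.27), and TOP2B. Their edgeR adjusted p values lay between 0.0105 (CIT) and 0.0464 (HMMR). HMMR varied most, with 144 and 30.5 CPM in the Inputs. Its log2 fold change was 1.42 without Input replicate 2 and 3.85 without Input replicate 1.

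By role, among groups of more than 1 gene, the spindle proteins had the highest median log2 fold change, 1.41, with 8 of 10 enriched. Cytokinesis proteins followed with 2 of 5 (CIT and ANLN, median 1.34). These medians and counts take no account of coding length, and no test was made between groups. Of all genes tested, 10.5% were enriched and 8.3% depleted. Placed within their length deciles, spindle proteins had a median percentile of 90.9 and cytokinesis proteins one of 91.8. It was 73.7 for checkpoint and passenger proteins, 57.9 for kinases and phosphatases, 60.2 for the cyclin group and 19.1 for the transcription factors. Checkpoint and passenger proteins had 3 enriched (INCENP, CDCA8 and MAD1L1) and 1 depleted of 8. Of 12 kinases and phosphatases of mitotic entry and checkpoint only BUB1B was enriched and CDK1 depleted, and WEE1 and CDC25C had an edgeR adjusted p below 0.05 (0.0440 and 0.0362) at 0.88 and 0.83, under the fold change minimum. The cyclin group of 12 held cyclins, the small CDK subunits CKS1B and CKS2, and proteins linked to the anaphase-promoting complex. Of these, CKS1B was depleted and ESPL1 (separase) was enriched, at 1.21 ± 0.24 (SE, adjusted p by edgeR = 0.0178). It has 6363 coding bases. The transcription factors FOXM1 and MYBL2, which drive the expression of many of these genes, lay at -0.11 and -0.08 and were not called. The 3 depleted genes have short coding sequences, CKS1B with 240 bases, MAD2L1 with 618 and CDK1 with 894. CKS1B, a small CDK subunit, had the lowest log2 fold change, -1.77 ± 0.34 (SE, adjusted p by edgeR = 0.0167). The checkpoint protein MAD2L1 was at -1.36 ± 0.27 (SE, adjusted p by edgeR = 0.0175). Without IP replicate 2 it was at -1.07.

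**Figure D4:**
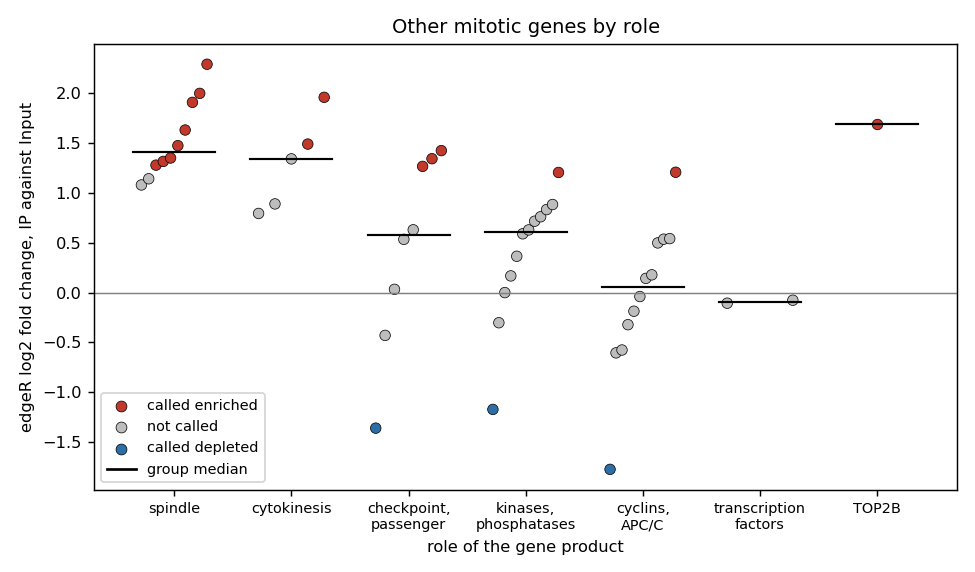
edgeR log2 fold change of IP against Input for 50 other mitotic genes grouped by role, with red points for genes called enriched, blue for depleted and grey for genes not called, and a line at each group's median. Spindle proteins have the highest median of the groups with more than 1 gene (1.41), and transcription factors the lowest (-0.09).

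The genes whose pattern over the 4 libraries was most like that of MKI67 were sought among 10219 further coding genes with a mean of at least 5 CPM. Likeness was the Euclidean distance between log2 CPM centred on the mean of each gene. The nearest were CEP152 (distance 0.124), TPR (0.196), GOLGA4 (0.305), MAP7D3 (0.345) and ANKRD18A (0.357), with log2 fold changes from 2.42 to 2.74. These 5 have between 2631 and 7092 coding bases, and none is on the list of mitotic genes. Of the other members, TOP2A was nearest, at place 34 (distance 0.575), and TPX2 was at place 66 (0.701). With only 4 libraries, such likeness mostly repeats the size of the ratio of IP to Input.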

How the data were processed

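The authors deposited raw read counts per gene for 4 libraries, with no normalization. According to the labels and the study's methods, Trimmomatic was used for trimming, STAR for alignment to hg19, and featureCounts for counting. The libraries came from a stranded kit, but the strand setting, the annotation release and the handling of multi-mapped reads are not given in the sources used here. Lengths, sequences and coordinates came from GENCODE v44 on GRCh38, another build than that of the counts, joined by Ensembl identifier (14265 of 14645 tested genes matched, all members included).

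IP was compared with Input in edgeR 4.0.16 under R 4.3.3 (quasi-likelihood test, robust dispersions), with TMM scaling, filterByExpr and group as the only term. p-values were adjusted by Benjamini-Hochberg over 14645 genes, and SE was derived from each fold change and its F statistic. Replicate ratios used a pseudocount of 0.5 CPM. The study describes the anti-FLAG libraries as duplicate experiments, and p-values measure the spread between these libraries. Reads carry no molecular identifiers. The numbers pair IP with the Input of the same precipitation in the labels, and deviations of same-numbered libraries from the group means correlated across genes (r = 0.645). The block was an alternative, beside RLE, library size and upper-quartile scaling, other filters, DESeq2 1.42.0, limma 3.58.1 (voom), glmTreat, other call rules and each library left out. The scripts were tested on simulated data.

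Members and gene lists were chosen with earlier results of these data known. Named were all members, the 5 most enriched and up to 5 most depleted of the mitotic list, 4 relatives of members and the 5 nearest patterns to MKI67. Other genes named by role were chosen after their values were seen.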

Additional observations from a re-analysis of the deposited data

How the results depend on the processing

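The log2 fold changes of MKI67, TOP2A and TPX2 passed in all fits of the 4 libraries but glmTreat. That test called 0 members, 0 other mitotic genes enriched and 0 depleted (11 and 2 at an unadjusted p below 0.05). Of all 14645 genes it called 0 enriched and 1 depleted. With 1 library left out, the log2 fold changes of MKI67, TOP2A and TPX2 stayed at 1.76 or above. With library size alone, 3 members were enriched, their median log2 fold change was 0.49, and 5 other mitotic genes were enriched and 6 depleted, against 380 and 3257 of all 14645 genes. The upper quartile (all genes shifted by a median of -0.17) and no count filter each left 4 members enriched, without ASPM and BUB1. Of all genes, 1080 of 14645 were enriched with the upper quartile and 1581 of 31990 with no count filter. CCNB2 (-0.068), AURKA (-0.36) and AURKB (-0.10) changed sign with library size alone. The difference between long and short members moved to 1.61 when the 5 longer were set against the 5 shorter members. Leaving out 1 library at a time gave a median of 0.77 to 1.31 for the members. The difference between long and short members was then 0.89 to 1.26. Each such fit leaves 1 library in a group, and the calls among all genes tested shifted as well. Counts of calls from these fits therefore do not describe the mitotic genes alone. The other mitotic genes then had 11 to 25 enriched and 1 to 3 depleted. AURKA ranged from -0.18 (without IP replicate 1 or Input replicate 2) to 0.67, and BIRC5 from -1.09 to 0.44 (without IP replicate 2), with 0.27 without Input replicate 1. With the replicate block the difference between long and short members was 1.05, and the block changed no call of a member. HMMR was not called with RLE scaling (2.24), library size alone (1.71) or DESeq2 (2.26). With 2 libraries a group, an exact permutation test of a single value cannot go below p = 0.333.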

Other observations

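The Inputs themselves differed in these mRNAs. All 10 members were lower in Input replicate 2 than in Input replicate 1, by ratios from 0.605 (BIRC5) to 0.896 (AURKB) with a median of 0.730, and so were 47 of the 50 other mitotic genes (median ratio 0.731). Over all 14645 genes tested the share was 49.3% and the median ratio 1.01. In the IP libraries 8 of the 10 members and 45 of the 50 other mitotic genes were lower in replicate 2, against 53.2% of all genes tested, and the exceptions among the members were MKI67 and ASPM. Replicate 2 also had more ORC1 RNA in Input (5063 against 333 CPM), whose part in this was not tested. These are single libraries, so the difference has no test, and fewer cells in mitosis and less of each mRNA per cell cannot be told apart in bulk RNA. The ratio of IP to Input was higher in replicate 2 for MKI67, TOP2A, TPX2 and ASPM and higher in replicate 1 for the other 6.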
